A study of Homo sapiens with 4 samples.

Results

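The ATP-binding cassette (ABC) genes encode proteins that bind and split ATP, and all but a few of them use that energy to move drugs, conjugates, lipids, heme precursors or vitamins across membranes. They were taken here as every gene whose listed name is ABC followed by a subfamily letter from A to G and a number, which gave 47 rows under 46 names among the 60617 genes of each file. Of the 47 rows, 39 had 10 or more counts summed over the libraries, 8 had fewer, and 2 of those 8 (ABCC8 and the pseudogene ABCC13) had 0. The name ABCF2 stood for 2 rows, ENSG00000033050 and ENSG00000285292, which overlap on the same strand of chromosome 7 and whose counts were not whole, so reads may have been split between them. The sources compared were spheres of U87MG, an established glioblastoma line, left untreated or kept with abemaciclib, an inhibitor of the kinases CDK4 and CDK6. Both groups were collected at day 14 from DMEM/F12 that held N2 supplement, 2% B27 and 20 ng/ml each of EGF and bFGF. Each group had 2 poly-A libraries, no dose was given in the sources used here, and the labels do not say that the libraries came from separate cultures, so the p-values cover no more than the scatter of these libraries, and that scatter may be technical.

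ABC proteins are built from membrane-spanning parts and ATP-binding parts. ABCB1, ABCC1 and ABCG2 are the classic multidrug pumps, and at the blood-brain barrier ABCB1 and ABCG2 keep many small molecules, CDK4 and CDK6 inhibitors among them, out of the brain. ABCA and ABCG members largely handle sterols and phospholipids, several ABCB members sit in mitochondria, ABCD members sit in peroxisomes or lysosomes, and ABCE1 and the ABCF proteins do not span membranes but act on ribosomes and translation. In gliomas ABCG2 is also known as the pump behind the side population, the dye-excluding cells used to enrich stem-like cells.

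The libraries held 23684260 to 33418075 expected counts, and 3 counts in a library corresponded to 0.0898 to 0.127 CPM, the count scaled to a common library total. The share of counts in genes of the mitochondrial genome was 4.27% and 4.66% untreated and 11.8% and 11.7% with abemaciclib. With these genes left out, 23 ABC genes were called higher, as with them, and 5 lower in place of 6. The scaling already trims genes with extreme levels or changes, so this alternative could change little. Whether the mitochondrial share bears on the calls was not tested. Of 6 glioma and glial markers VIM, NES, CD44 and EGFR were well detected. All 4 were called lower after the drug (all genes: 38.0% higher, 39.3% lower). CD44 fell the furthest (from 1341 to 479.8 CPM, group means, 2.80-fold) and EGFR the least (1.09-fold). GFAP and S100B, which define astrocytes, were at or below 0.295 CPM in every library. The 5 fibroblast and pericyte markers summed to 3184 to 3269 CPM untreated and 1795 to 1866 CPM with the drug, most of it COL1A1 (1.302-fold lower), while DCN fell 6.90-fold, PDGFRB 4.47-fold and LUM 2.37-fold and RGS5 did not pass. The 5 endothelial markers summed to 21.9 to 23.7 and 22.2 to 22.3 CPM, but PECAM1 fell 8.79-fold and KDR (from 8.39 to 15.0 CPM) and VWF rose, with CDH5 and CLDN5 at 0.125 CPM or less. The 5 neuronal markers summed to 62.4 to 63.3 and 71.3 to 75.9 CPM, where SNAP25 rose from 35.5 to 54.1 CPM, SLC17A7 fell 22.5-fold and SYT1 1.68-fold, and the list's median log2 fold change, -0.55, was opposite in sign to the change of its sum. The 6 macrophage markers summed to 11.9 and 12.4 CPM and then 6.17 to 6.94 CPM, with CSF1R and CD14 lower, PTPRC higher and AIF1 at 0 throughout. The 4 oligodendrocyte markers summed to 0.397 to 0.444 and 1.15 to 1.16 CPM, with MOG and MAG at 0. The part of these lists in the results below was not tested.

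More ABC genes were higher than lower after abemaciclib. Of the 34 rows that passed the filter on low counts, 23 were higher, 6 lower and 5 not past an adjusted p of 0.05 in edgeR's quasi-likelihood test. Over all genes tested 38.0% were called higher and 39.3% lower, 77.3% in either direction, beside 67.6% higher and 17.6% lower for the ABC rows. A change of at least 2-fold was called upward in 11 ABC rows (32.4%, against 13.8% of all genes) and downward in 1 (2.94%, against 17.4%), beside 31.2% of all genes in either direction. The median log2 fold change was 0.66 over the 34 rows and -0.01 over all genes tested. Placing the 2 tested genes with 0 untreated counts at the bound their counts allow leaves it at 0.66, as it must, since both lie above the median either way. Of the rows, 4 (ABCB5, ABCD2, ABCC11 and ABCA12) reached the filter's level in the abemaciclib libraries alone, so they could pass only by being high there. Without these 4 rows, 20 of 30 were higher and 6 lower, with a median of 0.54, and 8 (26.7%) were higher by at least 2-fold. The shares over all genes still hold rows that passed through 1 group only, so they are no exact match for these 30. The 2 groups of libraries did not overlap in 32 of the 34 rows (94.1%, against 87.9% of all genes), the exceptions being ABCC1 and ABCA3, and in 28 of 30 without those 4. In bulk RNA, fewer cells that express a gene and less of its RNA per cell cannot be told apart.

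**Figure D1:**
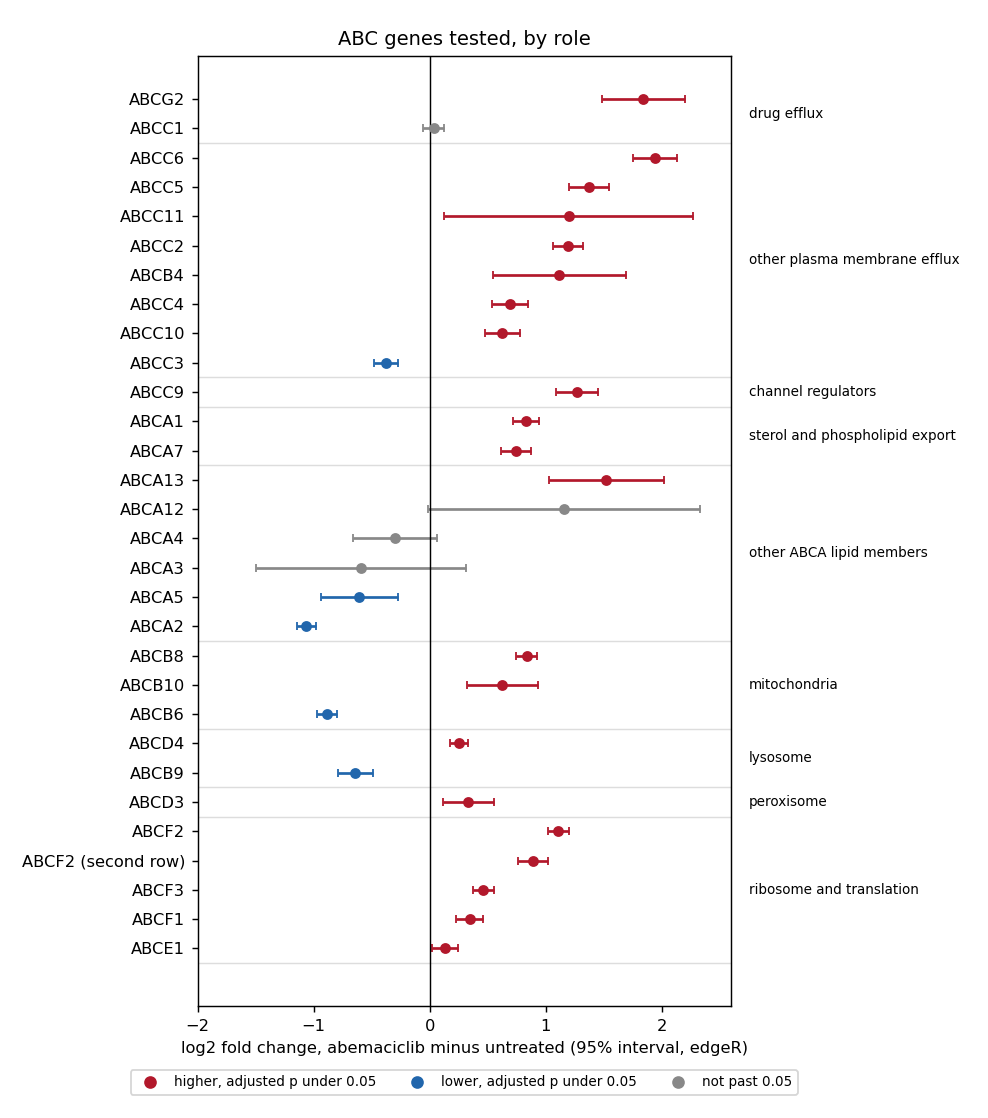
Log2 fold change (abemaciclib minus untreated, n = 2 libraries each) of 30 tested ABC rows, grouped by role, with 95% intervals from edgeR; ABCB5 and ABCD2, with 0 untreated counts, are not drawn because a fitted fold change of such a gene is no bound, and 2 further tested rows are left out because their values are not reported here. ABCC6 and ABCG2 lie furthest to the right at 1.94 and 1.84, and ABCA2 furthest to the left at -1.06. ABCC11 and ABCA12 are drawn but passed the filter only through the abemaciclib libraries.

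Since members moved in both directions, the RefSeq promoters of the family (250 bases before to 50 after a start, GRCh38.p14) were searched on both strands for 4 short motifs, and 35 of the 46 names had an entry. The E-box CACGTG was present for 8 of these 35 genes (22.9%), against 8.78% of all 27303 genes in the table. Among the 8 were ABCA1, ABCG2, ABCC10 and ABCF1, which rose, and ABCB6 and ABCB9, which fell. The other 2 were ABCA12, which did not pass the threshold, and ABCA9, which was not tested. The promoters of 2 genes that rose and 2 that fell are shown because the same letters stand in both, with the E-box in capitals, all read 5′ to 3′ on the minus strand.
ABCA1: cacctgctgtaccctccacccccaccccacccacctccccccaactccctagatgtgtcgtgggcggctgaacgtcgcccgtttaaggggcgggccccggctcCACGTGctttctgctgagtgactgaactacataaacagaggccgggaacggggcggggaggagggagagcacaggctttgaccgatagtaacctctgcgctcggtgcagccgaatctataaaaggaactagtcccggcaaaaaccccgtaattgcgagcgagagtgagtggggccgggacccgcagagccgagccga
ABCG2: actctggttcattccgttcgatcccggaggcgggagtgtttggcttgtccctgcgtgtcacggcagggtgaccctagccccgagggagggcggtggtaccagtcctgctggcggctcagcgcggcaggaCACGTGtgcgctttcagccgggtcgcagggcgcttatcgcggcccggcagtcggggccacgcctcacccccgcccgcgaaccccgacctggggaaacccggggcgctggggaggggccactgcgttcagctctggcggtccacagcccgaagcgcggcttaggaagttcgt
ABCB6: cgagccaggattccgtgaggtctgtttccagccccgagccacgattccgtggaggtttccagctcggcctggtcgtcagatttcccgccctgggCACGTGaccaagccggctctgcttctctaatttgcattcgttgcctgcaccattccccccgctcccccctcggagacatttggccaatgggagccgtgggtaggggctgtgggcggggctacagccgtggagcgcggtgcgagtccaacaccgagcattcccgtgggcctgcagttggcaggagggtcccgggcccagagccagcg
ABCB9: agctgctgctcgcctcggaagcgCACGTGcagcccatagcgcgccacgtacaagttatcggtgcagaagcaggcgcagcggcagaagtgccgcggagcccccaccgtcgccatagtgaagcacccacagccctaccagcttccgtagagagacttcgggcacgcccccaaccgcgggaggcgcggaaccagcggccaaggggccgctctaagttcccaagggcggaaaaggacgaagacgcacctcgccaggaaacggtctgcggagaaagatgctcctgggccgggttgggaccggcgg
These lie at chr9:104928106-104928405, chr4:88158860-88159159, chr2:219218909-219219208 and chr12:122975065-122975364, and the E-box begins 147, 121, 156 and 227 bases before the start in that order. Where a gene has several entries, the one shown holds the E-box nearest its start. The shorter core ACGTG, which is part of every E-box and of the sites bound by hypoxia-inducible factors, was present for 12 of the 35 genes (34.3%, against 24.9% of all genes). The GC box GGGCGG was present for 21 (60.0%, against 48.3%), and TGACNNNGC, the core of the antioxidant element, for 12 (34.3%, against 16.1%). A gene was counted if any of its entries held the motif, and these 35 genes had 53 entries. Per entry the GC box stood in 47.2% of them, against 45.0% of all 35114 entries. The E-box stood in 17.0% (against 7.26%), ACGTG in 26.4% (against 21.4%) and TGACNNNGC in 22.6% (against 13.3%). All 4 called-lower genes with an entry (ABCA2, ABCA5, ABCB6 and ABCB9) held both the GC box and TGACNNNGC in some entry, as did ABCC10, ABCC11, ABCD4, ABCF1 and ABCG2 of the 20 called higher. ABCA3, which did not pass the threshold, and ABCG4, which was not tested, held both as well. The share of all genes that hold both was not computed, so these counts have no background beside them. A match is a run of letters and no evidence of binding, and the binding of factors was not measured here.

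The 3 multidrug pumps differed from each other. ABCB1, or P-glycoprotein (ENSG00000085563, GRCh38 chromosome 7, 87503633 to 87713323), had 0 and 2 counts untreated and 1 and 2 after abemaciclib. It was at or under the floor of 3 counts in each group, so no fold is given and a difference was not detectable at this depth. ABCC1, the multidrug resistance protein MRP1, which exports glutathione and glucuronide conjugates (ENSG00000103222, chromosome 16, 15949577 to 16143074), stood at 65.0 and 62.8 CPM untreated and 66.2 and 64.7 CPM after the drug. These values overlap, and the log2 difference of 0.04 had a 95% interval from -0.05 to 0.12 (edgeR adjusted p = 0.463).

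ABCG2, the breast cancer resistance protein (ENSG00000118777, chromosome 4, 88090264 to 88231322), stood at 1.63 and 1.99 CPM untreated and at 6.65 and 6.44 CPM with the drug. Both treated libraries were above both untreated ones. The rise was 3.58-fold, or 1.84 ± 0.18 on the log2 scale (SE, edgeR adjusted p = 5.47e-11), and lay between 1.72 and 2.00 when any single library was left out. It rested on 109 counts untreated and 378 after the drug. Scaled for exon length, ABCC1 remained the most abundant of the 3 in both groups, at 8.44 and 8.64 CPM per kb, with ABCG2 at 0.358 and 1.297 CPM per kb and ABCB1 under 0.01 CPM per kb. ABCG2 overlaps annotated genes on both strands, among them AC097484.2 and AC097484.1, so its value is uncertain where the counting could share reads.

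**Figure D2:**
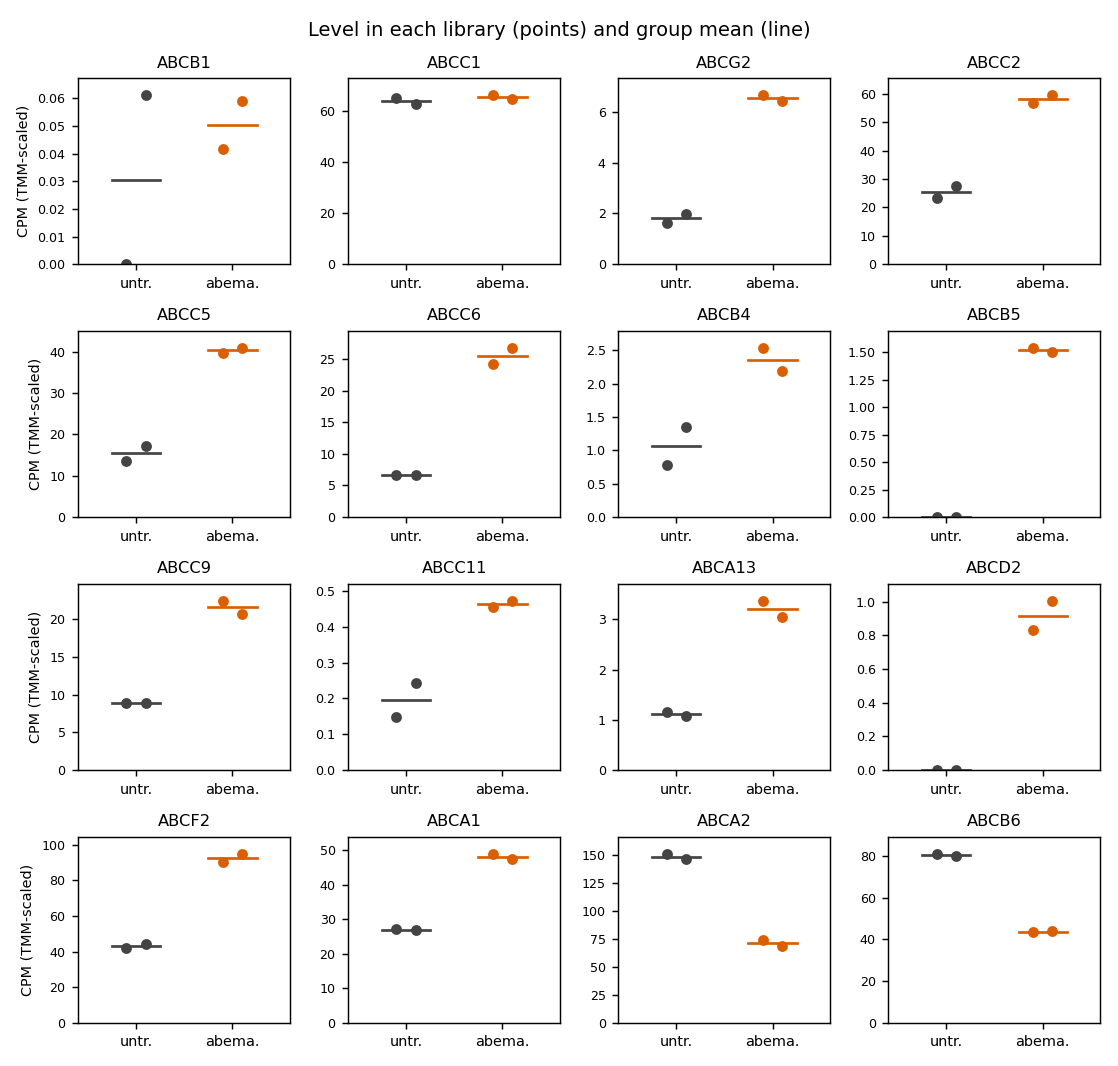
CPM (TMM-scaled) of 16 ABC genes in each library (points) with the group mean (line), untreated at left and abemaciclib at right of each panel, each panel on its own linear axis from 0. The 2 groups overlap in the panels of ABCB1 and ABCC1 and are apart in the other 14, upward in all but ABCA2 and ABCB6. Over all genes tested the groups did not overlap in 87.9%. ABCB5, ABCD2 and ABCC11 passed the filter on low counts only through the abemaciclib libraries.

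The other efflux pumps of the plasma membrane were mostly higher. Of 11 such genes 9 were tested, and 8 were higher and 1 lower, beside 38.0% higher and 39.3% lower over all genes tested. The median log2 fold change of the 9 was 1.20. Without ABCB5 and ABCC11, which passed the filter only through the abemaciclib libraries, 6 of 7 were higher and the median was 1.12. ABCC6, a pump needed for the release of cellular ATP and mutated in the calcifying disease pseudoxanthoma elasticum, was at 6.63 CPM in both untreated libraries and at 24.2 and 26.7 CPM after the drug (log2 fold change 1.94 ± 0.09, edgeR adjusted p = 2.15e-18). It lies next to ABCC1 on chromosome 16, with 5.853 kb between the ends of the genes, which are read towards each other. Its counts were not whole, and the family holds the pseudogenes ABCC6P1 and ABCC6P2. Per kb of exon ABCC6 went from 0.876 to 3.36 CPM, ABCC6P1 from 0.230 to 0.256 CPM without passing the threshold, and ABCC6P2 from 1.59 to 2.33 CPM (log2 fold change 0.55 ± 0.24, edgeR adjusted p = 0.0416). How reads were split among the 3 was not tested.

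ABCC5, which exports cyclic nucleotides and nucleotide analogues, was at 13.5 and 17.3 CPM untreated and 39.7 and 40.8 CPM after abemaciclib (1.38 ± 0.08, edgeR adjusted p = 6.7e-12). ABCC2, the canalicular pump for bilirubin and other conjugates in liver, was at 23.1 and 27.4 CPM and then at 56.8 and 59.5 CPM (1.20 ± 0.06, edgeR adjusted p = 8.01e-15). Each of these genes had its lower untreated value in replicate 1, and both treated libraries stood above both untreated ones. ABCC4, an exporter of cyclic AMP and prostaglandins (0.69 ± 0.07), and ABCC10 (0.63 ± 0.07) rose by less. ABCC3, an exporter of glucuronides, was the 1 member of the group that fell (-0.37 ± 0.05, edgeR adjusted p = 6.78e-08), from 56.1 and 57.0 to 45.7 and 42.1 CPM.

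The remaining efflux pumps had few counts. ABCB5, known as a marker of drug-tolerant melanoma cells, had 0 counts in both untreated libraries and 37 and 51 counts, or 1.54 and 1.51 CPM, after the drug. Against a floor of 3 counts over the untreated group this is at least 30.2-fold higher. No p is given, because the gene passed the filter only by being high after the drug. ABCB4, the phosphatidylcholine translocator of bile, went from 0.778 and 1.34 CPM to 2.53 and 2.18 CPM (1.12 ± 0.28, edgeR adjusted p = 0.00068). It lies 23.197 kb from ABCB1, which was nearly undetected in the same libraries.

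ABCC11, which is known for its part in earwax and sweat secretion, had 4 and 8 counts untreated and 11 and 16 after the drug (0.148 and 0.244 CPM, then 0.457 and 0.472 CPM). It too passed the filter only through the abemaciclib libraries, so no p is given. Its log2 fold change was 1.20 ± 0.53, and its call as higher was lost in 8 of 12 alternatives. The bile salt pump ABCB11 did not pass the filter, with 0 and 1 counts untreated and 4 and 9 after the drug. The ratio of its scaled counts was 13.4, with an exact (Clopper-Pearson) 95% interval from 2.01 to 569.4 that covers counting error only. ABCC12, next to ABCC11 on chromosome 16, had 22 counts in all and was not tested.

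ABCC9, the sulfonylurea receptor SUR2, is no pump but the regulatory subunit of ATP-sensitive potassium channels. It was at 8.93 and 8.89 CPM untreated and 22.4 and 20.7 CPM after abemaciclib (1.27 ± 0.09, edgeR adjusted p = 4.94e-14), with no overlap. KCNJ8, the pore subunit that pairs with it in smooth muscle and pericytes, was at 8.74 and 7.09 CPM and then at 8.39 and 9.09 CPM (0.16 ± 0.12, edgeR adjusted p = 0.232). The other receptor and pore genes, ABCC8 and KCNJ11, had 0 counts and 1 count over all libraries.

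Exporters of cholesterol and phospholipid split into 2 that were expressed and 4 that were nearly absent. ABCA1, which loads cholesterol and phospholipid onto apolipoproteins (ENSG00000165029, chromosome 9, 104781002 to 104928237), went from 27.03 and 26.95 CPM to 48.9 and 47.3 CPM, a 1.78-fold rise (0.83 ± 0.06, edgeR adjusted p = 1.42e-14). ABCA7, its close relative with a known link to Alzheimer disease risk, went from 21.9 and 21.3 CPM to 36.1 and 36.3 CPM (0.75 ± 0.06). ABCG1, which passes cholesterol to HDL particles and is often induced along with ABCA1, had 1 count in each untreated library and 0 after the drug. ABCG4 had 5 counts in all, and ABCG5 and ABCG8, the paired sterol pump of gut and liver, 1 each.

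Among genes of sterol sensing and lipid acceptors, 6 of 12 were higher, 5 lower and 1 uncalled (all genes: 38.0% higher, 39.3% lower). The enzyme LPCAT3 (1.61 ± 0.06) and the receptor NR1H3, which encodes the sterol sensor LXR-alpha (0.72 ± 0.06), rose furthest. NR1H2, which encodes LXR-beta, fell from 132 to 62.6 CPM (group means, -1.08 ± 0.04), and RXRB, a partner receptor, fell by 1.04 on the log2 scale (SE 0.05).

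The remaining ABCA genes differed in direction. Of 10 such genes 6 were tested, with 1 higher, 2 lower and 3 uncalled (all genes: 38.0% higher, 39.3% lower). ABCA2, an endolysosomal lipid transporter abundant in brain and named in resistance to estramustine (ENSG00000107331, chromosome 9, 137007227 to 137028922), was at 151.3 and 146.6 CPM untreated and 74.5 and 68.5 CPM after the drug. It was the 1 member called lower by at least 2-fold (-1.06 ± 0.04, edgeR adjusted p = 1.04e-20). ABCA5, another endolysosomal member, fell by 0.60 on the log2 scale (SE 0.16, edgeR adjusted p = 0.0013).

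ABCA13, the longest of the family's proteins, rose from 1.15 and 1.07 CPM to 3.36 and 3.04 CPM (1.52 ± 0.24, edgeR adjusted p = 1.42e-06). ABCA12, the lipid transporter of skin lamellar bodies, differed by 1.16 ± 0.57 (log2) on 32 counts and did not pass the threshold. It passed the filter only through the abemaciclib libraries, so no p is given. The retinal ABCA4 (-0.30 ± 0.18, edgeR adjusted p = 0.127) and ABCA3, which fills the lamellar bodies of lung (-0.59 ± 0.44, edgeR adjusted p = 0.226), did not pass either. ABCA5 belongs to a row of 5 neighbouring genes on chromosome 17, and the other 4 (ABCA10, ABCA6, ABCA9 and ABCA8) had 4 to 30 counts each over the 4 libraries and were not tested.

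**Figure D3:**
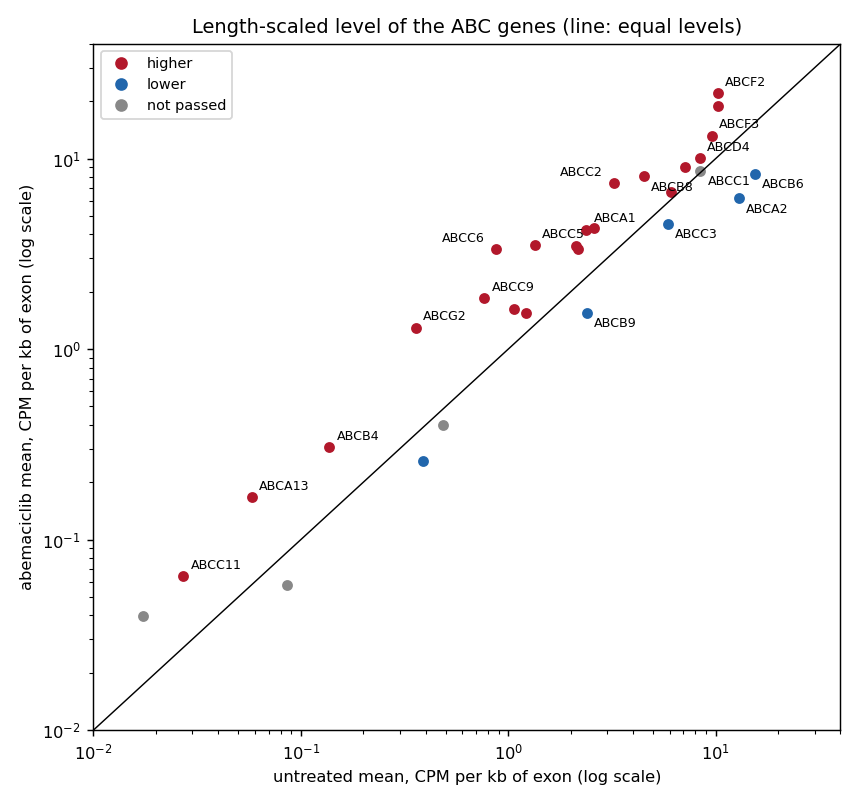
Group means in CPM per kb of exon, untreated on the x axis and abemaciclib on the y axis (both log scales), for 30 of the 32 tested ABC rows with counts in both groups (2 are left out because their values are not reported here); the line marks equal levels. ABCB6 and ABCA2, the most abundant untreated at 15.4 and 12.9, lie under the line, and ABCF2 lies above it at 10.3 and 22.2.

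Scaled for exon length, the order of the levels changed at the top. In the untreated libraries ABCB6 (15.4 CPM per kb) and ABCA2 (12.9) stood first, ahead of the rows ENSG00000033050 (10.3) and ENSG00000285292 (10.2) of ABCF2 and of ABCF3 (9.59). After abemaciclib the ABCF2 rows led at 22.2 and 19.0 CPM per kb, followed by ABCF3 (13.2), ABCD4 (10.03) and ABCF1 (9.07), while ABCB6 (8.34) and ABCA2 (6.21) stood lower. The exon length is that of all annotated exons joined, so a gene of which only short transcripts are made is placed too low.

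Mitochondrial members moved in both directions. ABCB6, a porphyrin transporter (ENSG00000115657, chromosome 2, 219209766 to 219219017), fell from 81.1 and 80.2 CPM to 43.4 and 43.9 CPM (-0.88 ± 0.04, edgeR adjusted p = 5.76e-18). ABCB8, a part of the mitochondrial potassium channel, rose from 43.2 and 41.2 CPM to 75.9 and 74.8 CPM (0.84 ± 0.05, edgeR adjusted p = 6.84e-17). ABCB10, which takes part in heme synthesis, was at 5.26 and 3.82 CPM and then at 6.48 and 7.32 CPM (0.63 ± 0.15, edgeR adjusted p = 0.000403). The counts of ABCB6 were not whole, and it overlaps AC068946.2 on its strand.

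Of 27 genes that make iron-sulfur clusters or heme, 18 were higher, 5 lower and 4 uncalled (all genes: 38.0% higher, 39.3% lower). The median log2 fold change of the 27 was 0.51. Within this list: the heme enzyme ALAD (1.57 ± 0.04) and the mitochondrial glutathione carrier SLC25A39 (1.46 ± 0.04) rose furthest. The mitochondrial iron importer SLC25A37 fell furthest (-2.19 ± 0.03), from 375.4 to 82.2 CPM (group means), followed by the assembly factor ISCA2 (-0.41 ± 0.07).

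The lysosomal pair went opposite ways. ABCB9, a peptide transporter related to the TAP complex, fell from 33.2 and 30.6 CPM to 22.1 and 19.0 CPM (-0.64 ± 0.07, edgeR adjusted p = 6.91e-09). ABCD4, which with LMBRD1 moves vitamin B12 out of lysosomes, rose slightly from 73.1 and 74.4 CPM to 88.9 and 87.1 CPM (0.25 ± 0.04, edgeR adjusted p = 9.41e-07). LMBRD1 itself fell (-0.74 ± 0.08). Of 10 genes that handle vitamin B12, 6 were higher, 3 lower and 1 uncalled (all genes: 38.0% higher, 39.3% lower). The carrier protein TCN2 (2.38 ± 0.06) and its receptor CD320 (1.24 ± 0.04) rose furthest, and the methionine synthase gene MTR fell (-0.56 ± 0.06).

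The peroxisomal members import fatty acids for breakdown. ABCD2, which takes up very long-chain fatty acids, had 0 counts in both untreated libraries and 20 and 34 counts (0.831 and 1.00 CPM) after the drug. This is at least 18.6-fold higher against a floor of 3 counts over the untreated group, and no p is given for the same reason as for ABCB5. ABCD3, for branched fatty acids and bile acid precursors, rose by 0.33 ± 0.11 on the log2 scale (edgeR adjusted p = 0.00628), which became 0.22 ± 0.13 without abemaciclib replicate 1 (edgeR adjusted p = 0.112). The 23 genes of peroxisome biogenesis and beta-oxidation had a median log2 fold change of 0.30. Of these, 15 were higher, 3 lower and 5 uncalled (all genes: 38.0% higher, 39.3% lower). The thiolase ACAA1 (1.34 ± 0.05) and the membrane biogenesis factor PEX3 (1.29 ± 0.08) rose furthest and PEX11A (-0.59 ± 0.12) and PEX6 (-0.40 ± 0.06) fell.

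All 5 rows of the members that act on ribosomes were called higher, 1 by at least 2-fold (all genes: 38.0% higher, 39.3% lower). They stand for 4 genes, since 2 are the overlapping ABCF2 rows. ABCF2 (ENSG00000033050, chromosome 7, 151212490 to 151227230) rose from 41.8 and 44.1 CPM to 90.4 and 94.8 CPM (1.11 ± 0.04, edgeR adjusted p = 2.55e-20). The overlapping row ENSG00000285292 rose from 23.0 and 21.8 CPM to 42.0 and 41.0 CPM (0.89 ± 0.06). With the 2 rows summed, an alternative chosen after the values were seen, the log2 fold change was 1.04 ± 0.04. ABCF3 (0.46 ± 0.04) and ABCF1, which aids the start of translation (0.35 ± 0.06), rose by less.

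ABCE1, which splits ribosomes after termination, was at 39.9 and 36.6 CPM and then at 42.6 and 41.1 CPM (0.13 ± 0.06, edgeR adjusted p = 0.0342). With DESeq2 it did not pass (0.14 ± 0.09, DESeq2 adjusted p = 0.174). Without untreated replicate 2 its log2 fold change was 0.06 (edgeR adjusted p = 0.391), and without abemaciclib replicate 1 it was 0.12 (edgeR adjusted p = 0.0975). Of 10 genes of ribosome rescue and recycling 7 were higher, 1 lower and 2 uncalled (all genes: 38.0% higher, 39.3% lower). The rescue factor HBS1L (0.74 ± 0.05) and the release factor ETF1 (0.73 ± 0.04) rose furthest, and ZNF598, which senses collided ribosomes, fell (-0.23 ± 0.06).

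**Figure D4:**
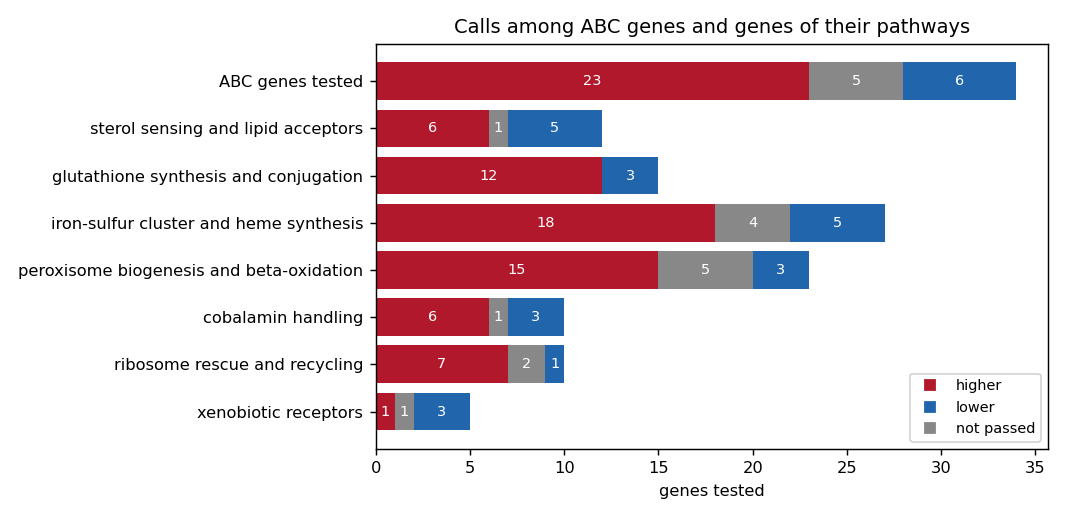
Number of tested genes called higher, not past the threshold or called lower (adjusted p under 0.05, edgeR) among the 34 ABC rows and in 7 lists of genes from their pathways. The ABC rows held 23 higher and 6 lower calls, the sterol list 6 and 5, and the xenobiotic receptors 1 and 3, beside 38.0% higher and 39.3% lower over all genes tested. Of the ABC rows, 4 passed the filter on low counts only through the abemaciclib libraries. Without these, 20 of 30 were higher and 6 lower.

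Genes that feed or control the efflux pumps were listed beside them. Glutathione synthesis and conjugation supply the conjugates that ABCC pumps export. Of its 15 tested rows 12 were higher and 3 lower (all genes: 38.0% higher, 39.3% lower), with a median of 0.61. The enzyme GCLC, which sets the rate of glutathione synthesis, rose from 13.8 to 32.6 CPM (group means, 1.25 ± 0.07), and the conjugating enzymes GSTM4 (-0.81 ± 0.08) and GSTM2 (-0.62 ± 0.04) fell. The row ENSG00000286070, listed under the name GGT1, rose by 1.58 ± 0.05, the furthest of the list, and the second row of that name, ENSG00000100031, rose by 0.67 ± 0.06. Of 5 tested xenobiotic receptors and related genes, 1 was higher, 3 lower and 1 uncalled. The vault protein gene MVP rose (0.60 ± 0.03), and the aryl hydrocarbon receptor AHR (-1.16 ± 0.07) and its partner ARNT (-0.39 ± 0.05) fell. NR1I2 and NR1I3, the drug-sensing receptors of liver, had 0 counts and 1 count over all libraries.

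The last 3 members of the family carry other names and lie outside the naming rule. TAP2, a subunit of the peptide pump that loads MHC class I, rose from 22.5 and 23.2 CPM to 52.5 and 51.0 CPM (1.18 ± 0.06, edgeR adjusted p = 3.45e-18), and its partner TAP1 from 46.7 and 47.0 CPM to 51.8 and 53.4 CPM (0.17 ± 0.05, edgeR adjusted p = 0.00222). CFTR, the chloride channel, had 0 counts untreated and 7 after the drug and was not tested.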

How the data were processed

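Messenger RNA was sequenced from 4 libraries, with group and replicate read from each title. Per the submitters' processing notes the tools were STAR 2.7.2b and RSEM 1.3.1 with genome build GRCh38. Their order and settings, the annotation release and the strand setting are not given in the sources used here. Overlapping and antisense genes are therefore uncertain. The deposited values are expected counts per gene, per the file headers, not scaled for depth or length. They were rounded and tested with edgeR 4.0.16 (R 4.3.3, limma 3.58.1) by the two-sided quasi-likelihood test on group alone, with TMM scaling (factors 0.980 to 1.02), filterByExpr and Benjamini-Hochberg adjustment over 17207 genes. CPM values are TMM-scaled, and errors are SE or SD (n = 2). For edgeR fits the SE was derived as the size of the log2 fold change over the square root of the F statistic. For DESeq2 it was the SE of that tool. Intervals are 95% and, unless stated otherwise, use the SE derived from edgeR and a t distribution. Replicates differed beyond sampling noise (chi-square per degree of freedom 3.56 untreated, 1.95 abemaciclib), and each library counted as 1 sample. The coefficient of variation that edgeR estimated between replicates was 2.86%. Neither value shows whether the libraries came from separate cultures. Coordinates and exon lengths came from GENCODE 29 (GRCh38), which matched 47 of 47 ABC rows and 96.4% of all identifiers. Promoters came from RefSeq (GRCh38.p14). DESeq2 1.42.0, limma-voom, other filters and scaling, a replicate block and leaving out each library were alternatives, and the fit was tested on simulated data.

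Members and lists were chosen with earlier results of these data known. Every ABC gene enters the counts, and the values of some are not reported here. Values per library are given for ABCB1, ABCC1, ABCG2 and members called with at least a 2-fold change, and of each pathway list up to 2 called genes in each direction with the largest change are named. The other members, pseudogenes and partner genes given with their values were chosen after those values were seen.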

Additional observations from a re-analysis of the deposited data

How the results depend on the processing

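The direction of all 34 tested ABC rows was the same in every alternative that gave a value (0 of 406 values reversed), and 29 rows also kept their side of the threshold in each. Values that crossed it included those of ABCC11 (8 of its alternatives), ABCE1 (3), ABCD3 (2) and ABCA4 (1, called lower without abemaciclib replicate 1, -0.46 ± 0.21, adjusted p = 0.0449). ABC genes called higher numbered 20 with DESeq2 and 22 with the replicate block, against 23. Those called lower numbered 5 or 6 throughout. Over all genes the calls numbered 11233 with DESeq2 and 13108 with the replicate block, against 13299. The correlation of the differences between replicates 1 and 2 of the groups was -0.00022 over 17207 genes. Counting noise enters each difference, so this value cannot settle whether the replicate numbers pair the libraries. Where a library was left out, the lone library of its group was assumed to vary like the others. ABCB1, with 5 counts, was tested only without the low-count filter (adjusted p = 0.804), where ABCB11 passed (adjusted p = 0.0235). Depth limits the 13 untested members, which had 0 to 30 counts over all libraries.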

Other observations

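Of the pseudogenes named after ABC genes, ABCA11P had 11.51 and 10.52 expected counts in the untreated libraries and 43.33 and 99.1 after abemaciclib, with no overlap between the groups. Its counts were not whole. ABCA17P, which overlaps ABCA3 on the opposite strand, had 4 and 5 counts untreated and 1 and 0 after the drug. ABCF2P1 had 0 counts in both untreated libraries and 3 in each abemaciclib library. The ABCB10 pseudogenes listed in the files had 0 counts throughout.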
